A study of Homo sapiens with 3 samples.

Results

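The well-expressed ZNF genes of PANC-1 cells were 141 genes with symbols made of ZNF, a number and at most 1 letter, each with at least 100 counts in the library of untreated cells. The table held 560 such symbols among 51136 genes, so that 419 ZNF genes stood under the minimum. The genes were thus chosen by their control count, and no other measured value was used. PANC-1 is an established human pancreatic cancer cell line. The study sequenced the RNA of 3 cultures on an Ion Proton instrument, to see how gene expression differed after ginsenoside Rg3, a saponin of ginseng taken there as an agent against the growth of blood vessels, and after tamoxifen (TAM), a modulator of the estrogen receptor used there to inhibit the PKC pathway. The control group was PANC-1 cells with no agent, and the labels name no vehicle for it. The Rg3 group was PANC-1 cells given 200 μM Rg3 for 24 h, and the TAM group was PANC-1 cells given 50 μM tamoxifen for 24 h. All groups shared the cell line and the growth medium, and each group was 1 library.

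C2H2 zinc finger proteins form the largest family of DNA-binding proteins in humans. Each finger is a short fold in which a pair of cysteines and a pair of histidines hold a zinc ion, and fingers placed one after another read successive bases of DNA. Many members carry a KRAB domain, which binds the corepressor TRIM28 and through it the histone methyltransferase SETDB1 and HP1 proteins, and this machinery keeps transposable elements silent. KRAB zinc finger genes arose by repeated duplication and lie in clusters, many of them on chromosome 19.

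A pattern of 2 cysteines and 2 histidines with the spacing of a C2H2 finger was found in the annotated protein of 137 of the 141 genes, and a KRAB A box pattern in 51. The first finger-coding stretch of 4 genes is printed to show how differently genes of this family can write the same fold. The genes were chosen among those with at least 3 finger patterns by their fold change for TAM against Rg3. ZNF146 and ZNF770 stood lowest and ZNF579 and ZNF358 highest. They are given 5′ to 3′ on the coding strand of GRCh38, with the codons of the 2 cysteines and 2 histidines of the pattern in capitals and every other codon in lower case.
ZNF146: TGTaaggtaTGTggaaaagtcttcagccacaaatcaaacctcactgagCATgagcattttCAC
ZNF770: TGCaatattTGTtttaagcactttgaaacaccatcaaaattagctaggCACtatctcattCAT
ZNF579: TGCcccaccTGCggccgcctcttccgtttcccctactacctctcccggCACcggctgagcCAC
ZNF358: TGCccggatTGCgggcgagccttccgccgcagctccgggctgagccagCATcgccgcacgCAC
The stretch of ZNF146 lies at chr19:36236492-36236554 on the plus strand, in exon 4 of 4, and G and C make up 41.3% of it. That of ZNF770 lies at chr15:34983288-34983350 on the minus strand, in exon 3 of 3, with 31.7%. The stretch of ZNF579 is at chr19:55579442-55579504 on the minus strand, in exon 2 of 2, with 69.8%, and that of ZNF358 at chr19:7519699-7519761 on the plus strand, in exon 2 of 2, with 74.6%. Each stretch is 63 bases long, and the genes of the second pair held more G and C in it than those of the first. The pairs were chosen by a fold change that was itself related to GC content, as given below, so this contrast is no separate result. Over the 122 genes with at least 3 finger patterns, G and C at the last base of the finger codons ran from 23.2% to 97.0% with a median of 63.3%.

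The counts per library summed to 11300766 in control, 12861693 with Rg3 and 11321442 with TAM. Counts were scaled by edgeR's TMM factors, which placed the log2 fold changes of all genes 0.14 lower for Rg3 against control, 0.21 higher for TAM against control and 0.35 higher for TAM against Rg3 than division by library totals, so the direction of a small difference depends on the scaling. The keratins KRT8, KRT18 and KRT19 of epithelial cells had 181 to 15329 counts in each library and vimentin had 39783 to 55276, while the epithelial markers EPCAM and CDH1 had at most 76. The 11 markers of acinar, endocrine, endothelial, immune and fibroblast cells had 0 to 2 counts in every library. No difference has a replicate check with 1 library a condition, and treatment and library cannot be told apart. Intervals at the 95% level are exact (Clopper-Pearson) and say nothing of variation beyond counting.

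In control, the 141 genes had 100 to 1463 counts with a median of 195. With Rg3 they had 67 to 2113 counts with a median of 256, and with TAM 33 to 1920 with a median of 167. These are low levels among genes past the same minimum, since the 9766 genes with at least 100 control counts had a median of 412.5 counts in control. Of the 141, 6 had under 100 counts with Rg3 and 30 with TAM. The genes just inside the minimum were ZNF652, with 100 counts in control, 164 with Rg3 and 59 with TAM, and ZNF546, with 101, 218 and 33. Just outside stood ZNF324B, with 98, 94 and 203, and ZNF512, with 97, 118 and 99. Among the 419 ZNF genes under the minimum, 87 had no count in any library, 70 reached 100 counts with Rg3 and 10 did so with TAM.

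ZNF768, a C2H2 protein that binds repeat-derived sequences, had the most counts in control, 1463, beside 1189 with Rg3 and 1518 with TAM. ZNF207, which loads the checkpoint protein BUB3 on kinetochores in mitosis, followed with 1318 counts in control, 2113 with Rg3 and 970 with TAM. ZNF511 had 1152, 1105 and 1920 counts. Of its 50-base stretches, 54.3% also occur in other genes, most often in the overlapping TUBGCP2, so that its reads may be split. Next came ZNF598, ZNF609 and ZNF76, with 918, 913 and 760 counts in control. On a scale of CPM (counts scaled to library size) per kilobase of the longest transcript the order was another one, with ZNF593 first at 93.5 in control, 66.3 with Rg3 and 158 with TAM. ZNF768 came next in control, with 35.7 in Rg3 and 65.9 in TAM on this scale, and ZNF511 had 50.1 in control. The value of ZNF593 is uncertain, since 92.6% of its stretches recur in other genes, most often in the overlapping AL391650.1.

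A gene was called higher or lower when its scaled counts differed by more than 1.5-fold between 2 libraries. This is the fold limit of the study's methods, whose further criterion on the false discovery rate was not applied, since 1 library a condition gives no test. Against control, 25 of the 141 genes were higher with Rg3 and 27 were lower, which is 17.7% and 19.1%, beside 19.3% and 18.1% of all 9766 genes. The median log2 fold change was -0.03 over the ZNF genes and -0.07 over all genes. With library totals the ZNF genes split 36 to 13, or 25.5% and 9.22% beside 25.8% and 11.3% of all genes, and their median turned to 0.11 beside 0.07. The control counts chose the genes, so these values are a description, and the shares lie near the background. In bulk RNA, fewer cells of a type and less RNA per cell cannot be told apart.

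ZNF638, a nuclear protein that binds RNA and cytidine-rich DNA, stood highest with Rg3 relative to control. Its counts were 308 in control, 895 with Rg3 and 105 with TAM, a log2 fold change for Rg3 of 1.21 (95% interval 1.02 to 1.40). ZNF644, a partner of the G9a and GLP histone methyltransferases, had 216, 598 and 100 counts and a log2 fold change for Rg3 of 1.14 (0.92 to 1.37). ZNF292, a large zinc finger transcription factor, had 119, 329 and 46, and also a log2 fold change of 1.14 (0.83 to 1.46). All 3 genes were highest with Rg3 and lowest with TAM, with control in between. ZNF780B, ZNF639 and ZNF451 followed at log2 fold changes of 1.03, 0.94 and 0.93 for Rg3 against control.

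At the other end for Rg3 stood ZNF579, with 161 counts in control, 85 with Rg3 and 212 with TAM, a log2 fold change for Rg3 of -1.25 (95% interval -1.64 to -0.86). ZNF688, a KRAB gene on chromosome 16, had 125, 67 and 160 counts and a log2 fold change of -1.23 (-1.68 to -0.79). These genes had the reverse order, lowest with Rg3 and highest with TAM. ZNF865, ZNF764, ZNF185 and ZNF444 came next, at log2 fold changes of -0.96, -0.87, -0.86 and -0.82 for Rg3 against control. ZNF185 encodes a LIM domain protein of the actin cytoskeleton and holds no C2H2 pattern, a lack it shares with ZNF330, ZNF365 and ZNF839. Counting error alone left the interval of each of the 52 called genes clear of 0, but only 12 of the 25 higher and 3 of the 27 lower genes had an interval wholly past 1.5-fold.

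With TAM, 28 of the 141 genes were higher than in control and 32 were lower, or 19.9% and 22.7%, beside 15.6% and 19.4% of all genes. The median log2 fold change was 0.01 over the ZNF genes and 0.03 over all genes, and with library totals the split was 9 higher and 41 lower, or 6.38% and 29.1% beside 6.77% and 28.0% of all genes, and the median of the ZNF genes -0.20 beside -0.18. Intervals wholly past 1.5-fold were found for 6 of the higher and 18 of the lower genes.

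ZNF146, a protein made of fingers alone that is amplified in some pancreatic carcinomas, was lowest with TAM. It had 513 counts in control, 1188 with Rg3 and 147 with TAM, a log2 fold change for TAM against control of -1.60 (95% interval -1.87 to -1.33). Of its stretches, 9.38% recur in other genes, most often in the overlapping ZNF565. ZNF770 had 130, 303 and 39 counts and a log2 fold change of -1.53, with 35.0% of its stretches shared with other genes, most often AC114546.3. ZNF217, an oncogene product that works with the CoREST corepressor, had 756, 1225 and 252 counts and a log2 fold change for TAM of -1.38 (-1.59 to -1.17). ZNF532 differed from these genes in that it was lower than control in both treated libraries, with 391 counts in control, 359 with Rg3 and 129 with TAM, at log2 fold changes of -0.45 for Rg3 and -1.39 for TAM. The KRAB gene ZNF546 stood at -1.41 and ZNF638 at -1.35 for TAM against control.

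Highest with TAM relative to control was ZNF580, with 313 counts in control, 255 with Rg3 and 579 with TAM, a log2 fold change of 1.09 (95% interval 0.89 to 1.30). ZNF358 had 287, 218 and 526 counts and a log2 fold change of 1.08 (0.87 to 1.29). Of its stretches, 30.3% recur in other genes, most often in AC008878.1. Then followed ZNF511, ZNF576, ZNF513 and ZNF524, at log2 fold changes for TAM of 0.94, 0.94, 0.91 and 0.84. ZNF524, a protein that binds telomeric repeats, had 137, 106 and 212 counts. All 6 were lower with Rg3 than in control after scaling, at log2 fold changes from -0.72 to -0.31.

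The libraries with TAM and Rg3 played no part in choosing the genes, and they differed most. Of the 141, 50 were higher with TAM than with Rg3 and 49 were lower, or 35.5% and 34.8%, beside 33.2% and 30.4% of all genes. The median log2 fold change was 0.14 over the ZNF genes and 0.09 over all genes, and the interquartile range of the ZNF genes was -0.94 to 0.89. With library totals the split was 33 higher and 59 lower, or 23.4% and 41.8% beside 19.6% and 40.3% of all genes, and the median of the ZNF genes turned to -0.21 beside -0.26. Intervals wholly past 1.5-fold were found for 39 of the 50 higher and 35 of the 49 lower genes.

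The lowest values for TAM against Rg3 were those of ZNF638, 5.89-fold lower with TAM (log2 fold change -2.56, 95% interval -2.86 to -2.27), ZNF146 at -2.48, ZNF770 at -2.42, ZNF292 at -2.31, ZNF546 at -2.19 and ZNF644 at -2.05. The highest were those of ZNF579, 3.61-fold higher with TAM (log2 fold change 1.85, 95% interval 1.48 to 2.23), ZNF358 at 1.80, ZNF688 at 1.79, ZNF580 at 1.72, ZNF865 at 1.68 and ZNF444 at 1.63. The 6 genes at the low end had 36.3% to 41.4% G and C in their longest transcript, and the 6 at the high end 57.8% to 71.1%.

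**Figure D1:**
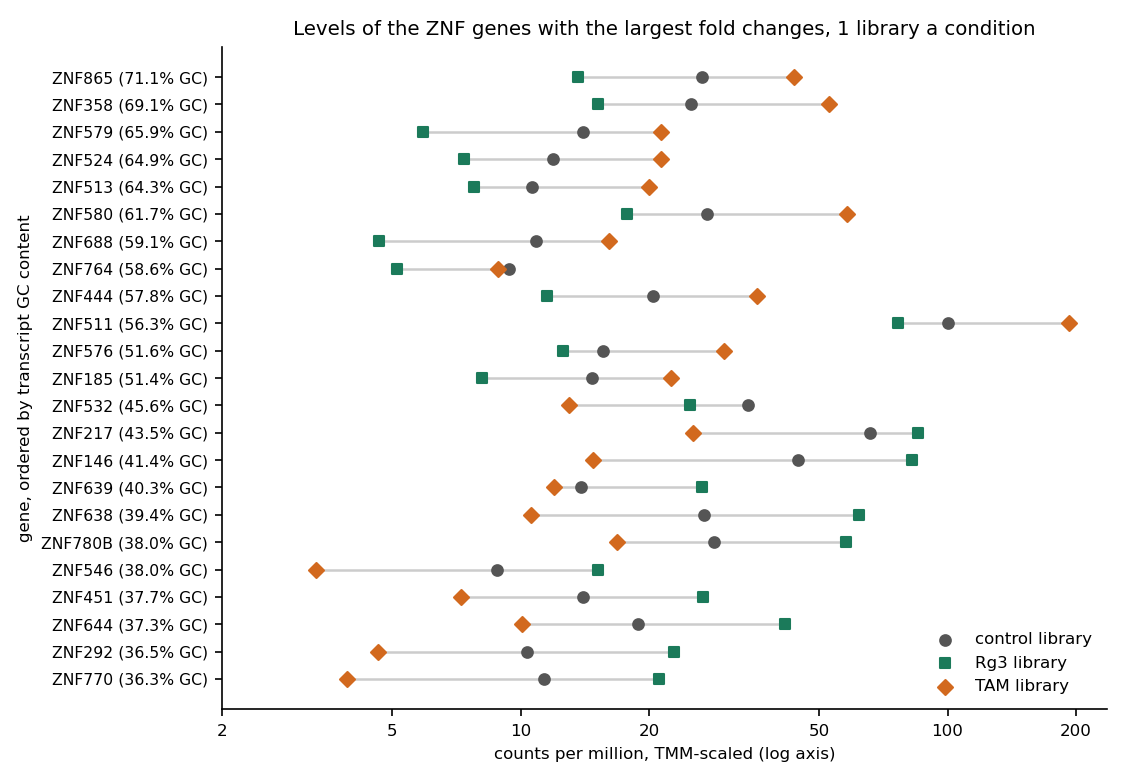
CPM after TMM scaling (log axis) of the ZNF genes with the 6 highest and 6 lowest fold changes in each comparison, ordered from low (36.3%, bottom) to high (71.1%, top) GC content of the transcript; each point is 1 library. From ZNF770 to ZNF217 the Rg3 library is highest and the TAM library lowest, and from ZNF185 up the TAM library is highest except for ZNF764.

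**Figure D2:**
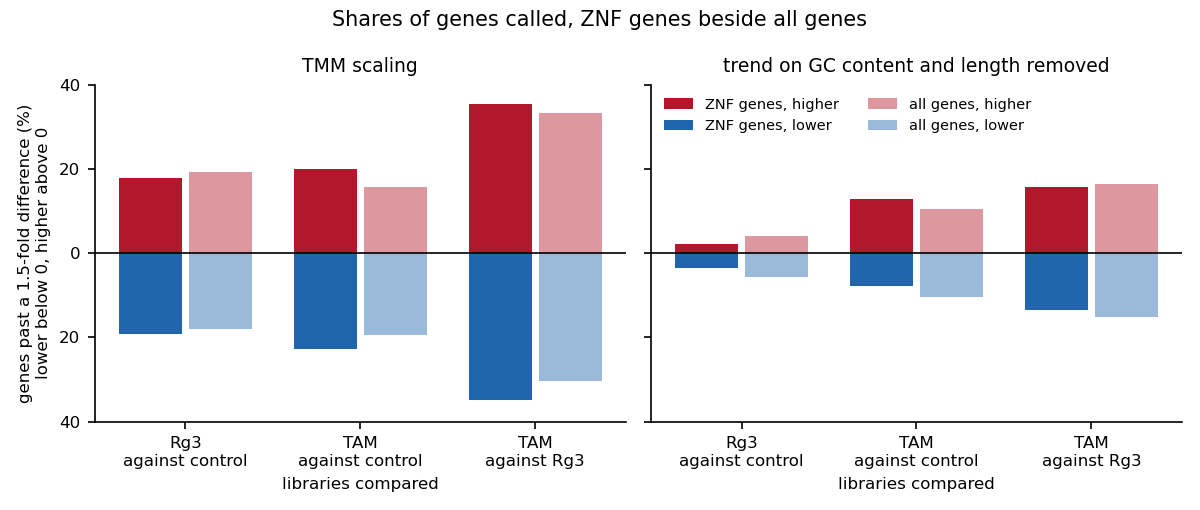
Percent of genes past a 1.5-fold difference, higher above 0 and lower below 0, for the 141 ZNF genes (dark) and all genes with at least 100 control counts (light), with TMM scaling on the left and after subtracting the smooth trend on GC content and length on the right. The ZNF bars lie within a few percentage points of the background bars, as the 35.5% against 33.2% higher for TAM against Rg3 shows.

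Transcript base composition ran through all 3 comparisons. The transcripts of the 141 genes had a median GC content of 50.4% (36.1% to 71.1%), close to the 50.0% of all genes, and a median length of 4213 bases (698 to 18299) beside 3547. Across the 141 genes, Spearman's rho between GC content and the log2 fold change was -0.87 for Rg3 against control, 0.75 for TAM against control and 0.87 for TAM against Rg3. Across all 9151 genes with a GC content it was -0.81, 0.53 and 0.78. Genes are not independent replicates and the comparisons share libraries, so these values describe the libraries and carry no p. Transcript length gave weaker values over the ZNF genes, 0.43, -0.54 and -0.53, and GC content and length were themselves related (rho -0.50). The number of fingers gave 0.17, -0.22 and -0.22.

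Split into 3 equal groups of 47 by GC content, the ZNF genes separated almost fully. Other genes of low and high GC content split in the same directions, so the separation is not particular to ZNF genes. In the group with the lowest GC content, 23 genes were higher with Rg3 than in control and 0 lower, while 0 were higher and 25 lower with TAM. The medians of this group were 0.56 for Rg3 and -0.66 for TAM against control, and -1.28 for TAM against Rg3. In the group with the highest GC content, 25 genes were lower with Rg3 than in control and 0 higher, while TAM gave 23 higher and 0 lower, with medians of -0.59, 0.57 and 1.10. The middle group had medians of -0.02, 0.03 and 0.10, whose signs turn with library totals. Against Rg3, 0 of the 47 genes of lowest GC content were higher with TAM and 36 were lower, and 42 of the 47 of highest GC content were higher and 0 lower. In bins of GC content, 84.2% of 1069 other genes under 40% were lower with TAM than with Rg3, beside 81.25% of 16 ZNF genes. At 60% and above, 80.2% of 1397 other genes were higher, beside 92.9% of 28 ZNF genes. Shares for the comparisons with control follow below.

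In all 6 bins of GC content and all 3 comparisons, the medians of the ZNF genes and of the other genes had the same sign after TMM scaling, though not always the same size. Between 40% and 45% GC, the median log2 fold change for Rg3 against control was 0.46 over 29 ZNF genes and 0.51 over 1802 other genes, and for TAM against control -0.53 and -0.34. At 60% and above, it was -0.61 over 28 ZNF genes and -0.62 over 1397 other genes for Rg3, and 0.67 and 0.46 for TAM. Here 17 of the 28 ZNF genes, or 60.7%, were higher with TAM, beside 35.7% of the other genes. Under 40% GC, 68.8% of the ZNF genes were lower with TAM, beside 46.1% of the others. For Rg3 the shares in these 2 bins lay closer. They were 57.1% and 54.2% lower at 60% and above, and 75% and 74.5% higher under 40% GC. For Rg3 against control, the 2 medians differed by at most 0.13 in any of the 6 bins. For TAM against control the ZNF medians lay 0.35 below the other genes under 40% GC, a bin of only 16 ZNF genes, and 0.21 above them at 60% and over. For TAM against Rg3 the medians were -1.83 over the ZNF genes and -1.36 over the others under 40% GC, -1.10 and -0.87 between 40% and 45%, and 1.19 and 1.02 at 60% and above.

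**Figure D3:**
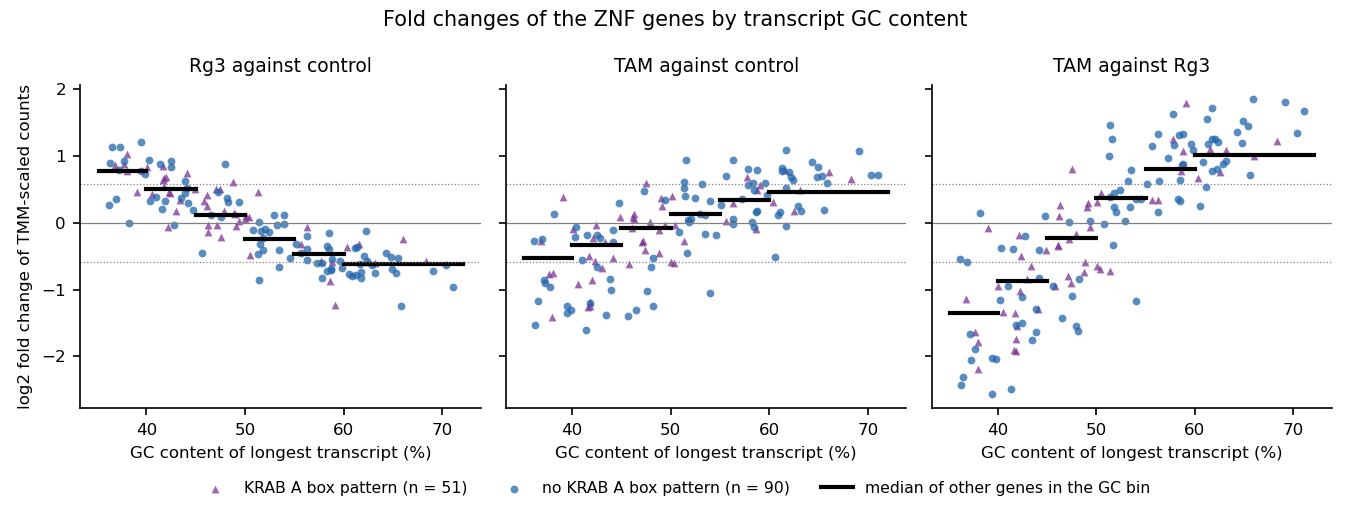
Log2 fold change of TMM-scaled counts (vertical) against the GC content of the longest transcript (horizontal, %) for the 141 ZNF genes in the 3 comparisons, with triangles for the 51 genes with a KRAB A box pattern, circles for the other 90, black bars for the median of other genes in each GC bin and dotted lines at 1.5-fold. Values fall with GC content for Rg3 (rho -0.87) and rise with it for TAM against Rg3 (rho 0.87).

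A smooth trend on GC content and length, fitted over all genes with at least 50 control counts, was then removed. For Rg3 against control this left 3 ZNF genes higher and 5 lower, beside 4.08% and 5.61% of the 9151 genes. For TAM against control 18 were higher and 11 lower, beside 10.4% and 10.4%, and for TAM against Rg3 22 were higher and 19 lower, beside 16.4% and 15.3%. The medians of the ZNF genes were 0.05, 0.11 and 0.00 on this scale. Some relation to GC content was left in the ZNF genes, at a rho of 0.24 for TAM against control and 0.20 for TAM against Rg3, beside 0.057 and 0.035 over all genes. For TAM against control the median was still -0.12 in the 47 genes of lowest and 0.29 in the 47 of highest GC content. Of the 25 genes called higher and 27 called lower with Rg3, 2 and 2 were still called after the removal. For TAM against control the removal left 9 of 28 higher and 10 of 32 lower calls, and for TAM against Rg3 12 of 50 and 18 of 49. The sign itself turned for 1 of the 25 and 5 of the 27 with Rg3, for 0 of the 28 and 3 of the 32 with TAM, and for 13 of the 50 and 10 of the 49 for TAM against Rg3. The part of base composition in the difference of any single gene was not tested further.

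The genes called for Rg3 after removal were ZNF664 (0.79), ZNF274 (0.64) and ZNF337 (0.63) among the higher and ZNF385D (-0.73), ZNF532 (-0.72), ZNF688 (-0.67), ZNF185 (-0.66) and ZNF514 (-0.60) among the lower, all as log2 differences from the trend. ZNF664, ZNF337, ZNF385D and ZNF514 were named after their values were seen. ZNF664 had 428 counts in control, 984 with Rg3 and 234 with TAM at an intermediate GC content of 48.0%, and its log2 fold change for Rg3 before removal was 0.87. ZNF385D and ZNF514 show the opposite case, with log2 fold changes for Rg3 of -0.00 and -0.05 before removal. Their calls rest on the trend alone. ZNF337 shares 77.9% of its stretches with other genes.

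For TAM against control, ZNF146 stayed lowest after removal at a log2 difference of -1.22, followed by ZNF532 at -0.85, ZNF770 at -0.83, ZNF217 at -0.82, ZNF341 at -0.78 and ZNF516 at -0.77. ZNF341, named after its values were seen, had a log2 fold change of -0.51 before removal, which was not called, and stood at -0.18 with level also in the trend. ZNF146 was also lowest for TAM against Rg3, at -1.49. Of the higher calls for TAM against control, ZNF444 and ZNF500 stood at 0.80, ZNF576 at 0.73 and ZNF358 at 0.69. ZNF385D, ZNF641, ZNF655 and ZNF264, chosen after their values were seen, had higher values after removal, 1.06, 1.03, 1.00 and 0.86, but log2 fold changes of 0.14, 0.47, 0.39 and -0.04 before it. ZNF185 differed between the treated libraries by a log2 fold change of 1.47 before removal and 1.31 after it.

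The 51 genes with a KRAB A box pattern had a lower median GC content, 47.2%, than the 90 without one, 53.1%. Their median log2 fold change for Rg3 against control was 0.18, with 11 higher and 4 lower, beside -0.21 with 14 higher and 23 lower in the genes without the pattern, where 19.3% of all genes were higher and 18.1% lower. For TAM against control the medians were -0.09 (5 higher, 12 lower) and 0.12 (23 higher, 20 lower), the latter turning to -0.09 with library totals, beside 15.6% higher and 19.4% lower of all genes. For TAM against Rg3 they were -0.34 (11 higher, 23 lower) and 0.35 (39 higher, 26 lower), beside 33.2% and 30.4%. Once the trend was removed, the KRAB genes had medians of 0.09, 0.11 and 0.05 and the others -0.00, 0.09 and -0.01, so the distance between the groups was at most 0.09. Within 1 class of GC content the groups lay closer as well, with medians for Rg3 of 0.64 over 19 KRAB genes and 0.57 over 26 others under 45% GC, and of -0.57 over 12 and -0.61 over 39 at 55% and above. Between 45% and 55% GC the distance was wider, with medians of 0.12 over 20 KRAB genes and -0.10 over 25 others for Rg3 against control, and of -0.29 and 0.16 for TAM against Rg3. The difference between the groups was not tested.

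Chromosome 19 held 36 of the 141 genes, or 25.5%, beside 6.70% of all genes, and chromosome 16 held 17, or 12.1%, beside 5.08%. The 18 KRAB genes on chromosome 19 had medians of 0.45 for Rg3 and -0.33 for TAM against control. Runs of neighbours on chromosome 19 differed in fold change and also in GC content. A run of 12 genes at chr19:57191500-58481230, from ZNF264 to ZNF446 and with 10 KRAB genes, had a median GC content of 46.2% and medians of 0.39 for Rg3 and -0.06 for TAM against control. Without the trend its medians were 0.11 for Rg3 and 0.05 for TAM. Another run of 8 genes at chr19:55576770-56160893, with no KRAB gene, had a median GC content of 64.9%. In it ZNF579, ZNF524, ZNF865, ZNF784, ZNF580, ZNF581, ZNF787 and ZNF444 were each called higher with TAM than in control, with a median of 0.72, and 6 of the 8 were called lower with Rg3, with a median of -0.66, beside 15.6% and 18.1% of all genes. With library totals these medians were 0.51 and -0.52, both short of 1.5-fold, so the calls depend on the scaling. Without the trend the medians of this run were 0.34 and -0.02.

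On chromosome 16, a run of 9 genes at chr16:30378106-31084196 with a median GC content of 59.1% had 7 genes lower and 0 higher with Rg3 than in control, a median of -0.67, and 3 higher and 0 lower with TAM, a median of 0.42. The shares of all genes were 18.1% lower for Rg3 and 15.6% higher for TAM. This run holds ZNF768, ZNF764 and ZNF688, and 4 of its genes carry the KRAB pattern. For TAM against Rg3, 8 of the 9 were higher with a median of 1.10, beside 33.2% of all genes. With library totals the medians were -0.53 for Rg3 and 0.21 for TAM against control, and 0.75 for TAM against Rg3. After removal of the trend the medians were -0.08 for Rg3 and 0.33 for TAM against control, and 0.53 for TAM against Rg3. Neighbours share base composition and, where exons overlap, reads, so they are not independent of each other.

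**Figure D4:**
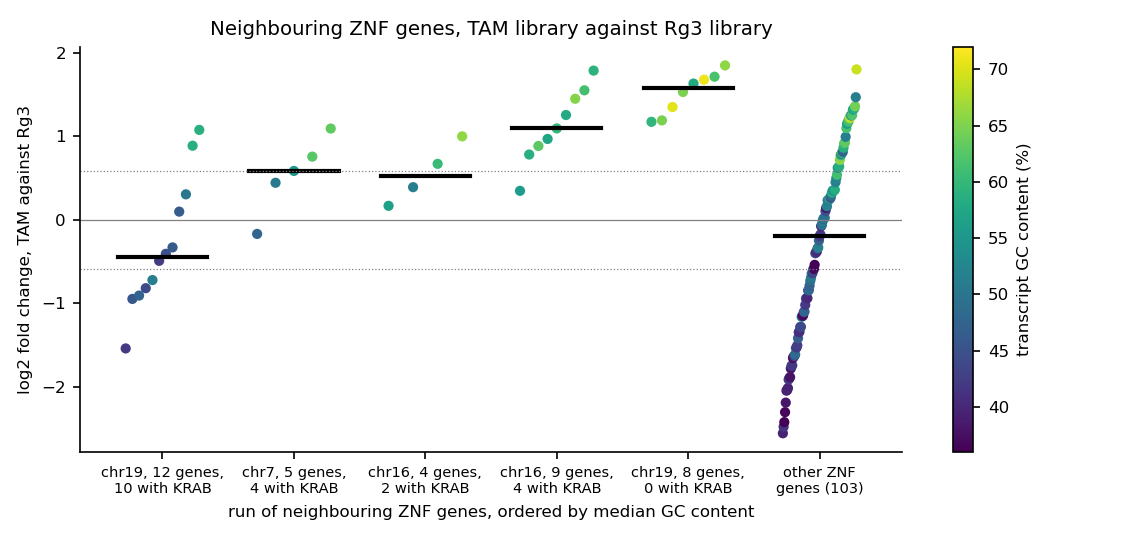
Log2 fold change of TMM-scaled counts for TAM against Rg3 (vertical) of ZNF genes in 5 runs of at least 4 neighbours on 1 chromosome, ordered by median GC content, and of the remaining 103 ZNF genes; each point is a gene coloured by GC content, bars are medians and dotted lines mark 1.5-fold. All 8 genes of the chromosome 19 run on the right lie above 1.5-fold, with a median of 1.58, while the other chromosome 19 run has a median of -0.45. After subtracting the smooth trend, which is not drawn here, these medians are 0.45 and 0.03.

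Some ZNF proteins work outside DNA binding, on ribosomes and RNA. All 6 genes listed for this role passed the minimum. ZNF598, a ubiquitin ligase that marks collided ribosomes, had 918 counts in control, 803 with Rg3 and 914 with TAM. ZNF622, a maturation factor of the large ribosomal subunit, had 421, 516 and 549, with log2 fold changes of -0.03 for Rg3 and 0.59 for TAM. ZNF593, another factor of the large subunit, had 749, 666 and 1098 counts and a log2 fold change for TAM of 0.76. ZNF346, which binds double-stranded RNA, had 338, 387 and 378 counts, and its log2 fold changes of -0.13 and 0.37 were not called. ZNF326, a subunit of a complex that links transcription and splicing, had 149, 225 and 107 counts and no call either. Together with ZNF638, the 6 genes gave 1 call higher and 0 lower for Rg3 against control, and 2 higher and 1 lower for TAM against control, beside 19.3% and 18.1% and 15.6% and 19.4% of all genes. Without the trend the median of the 6 was 0.19 in both comparisons, with 0 calls for Rg3 and 1 higher, ZNF326, for TAM. That call rests on the trend alone, since the log2 fold change of ZNF326 for TAM was -0.27 before removal and 0.62 after it.

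ZNF207 and ZNF451 act in cell division and in protein modification. ZNF207 had log2 fold changes of 0.35 for Rg3 and -0.24 for TAM against control, neither called. ZNF451, a SUMO ligase that also helps to release trapped topoisomerase, had 161 counts in control, 385 with Rg3 and 72 with TAM, and log2 fold changes of 0.93 and -0.95. The trend removal took the values of ZNF451 to 0.18 and -0.06. It turned both signs of ZNF207, to -0.43 for Rg3 and 0.69 for TAM, and the latter is past 1.5-fold. With level also in the trend the TAM value of ZNF207 was 0.25.

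Several ZNF proteins are components or partners of corepressor complexes. Of 9 listed, 8 passed the minimum, and 5 were called lower and 1 higher with TAM than in control, beside the 19.4% and 15.6% of all genes, with a median of -0.98. ZNF217 and ZNF532 were given above. ZNF516, a partner of the CtBP corepressor, had 339 counts in control, 460 with Rg3 and 142 with TAM, a log2 fold change for TAM of -1.05 (95% interval -1.34 to -0.76) at a GC content of 54.0%. ZNF518B, which binds G9a, had 111, 232 and 39 counts and a log2 fold change for TAM of -1.30, and ZNF644 stood at -0.90. ZNF592 and ZNF687, which with ZNF532 belong to a complex around ZMYND8, had log2 fold changes of 0.02 and 0.01 for TAM. These 3 partners thus differed, as ZNF532 had the interval -1.69 to -1.10 and the other two had intervals within 0.20 of 0. ZNF512B, a partner of the NuRD complex, was the gene called higher, with 333, 282 and 452 counts and a log2 fold change of 0.65. With the trend removed, 3 of the 8, ZNF217, ZNF516 and ZNF532, were called lower and ZNF512B was called higher, with a median of -0.35, beside 10.4% of all genes in each direction. For Rg3 against control 2 were higher and 0 lower, beside 19.3% and 18.1%, and the median of -0.05 turned to 0.09 with library totals.

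Among the transcriptional activators, 7 of 10 passed the minimum. ZNF143, which drives small nuclear RNA genes and many promoters, had 104 counts in control, 234 with Rg3 and 57 with TAM, at log2 fold changes of 0.84 for Rg3 and -0.66 for TAM. Its paralog ZNF76 had the opposite pattern, with 760, 699 and 1073 counts and log2 fold changes of -0.45 and 0.70, and their GC contents were 42.5% and 55.6%. Without the trend ZNF143 stood at 0.32 for Rg3 and -0.45 for TAM against control, neither called. ZNF76 stood at -0.02 for Rg3 and 0.63 for TAM, the latter called. ZNF281, a regulator of the epithelial to mesenchymal transition, had 301, 476 and 114 counts and a log2 fold change for TAM of -1.19, of which -0.68 was left after removal. ZNF410, known for its narrow task of activating the chromatin remodeler gene CHD4, had 377, 540 and 401 counts with no call. Of its stretches, 93.5% recur in other genes, most often in AC005520.1. ZNF395 had 291, 230 and 274 counts and was called lower with Rg3 at -0.67. ZNF384 and ZNF335 were not called against control. Other genes share 41.7% of the stretches of ZNF395 and 48.9% of those of ZNF384.

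SCAN domain proteins pair with each other through a motif beside their fingers. Of 14 listed, 11 passed the minimum, and against control Rg3 gave 1 call in each direction, beside 19.3% and 18.1% of all genes, and TAM 1 higher and 2 lower, beside 15.6% and 19.4%. ZNF24 was the gene called higher with Rg3, with 258 counts in control, 561 with Rg3 and 123 with TAM, and its log2 fold changes of 0.79 and -0.86 came to -0.01 and -0.03 after removal of the trend. ZNF446 was lower with Rg3 at a log2 fold change of -0.71, and ZNF500 was higher with TAM at 0.80 before and after removal. Other genes share 59.1% of the stretches of ZNF446, most often ZNF324. They share 21.5% of those of ZNF500, most often the overlapping C16orf71. ZNF202, a repressor of lipid metabolism genes, had 214, 278 and 123 counts and was lower with TAM at -0.59. ZNF263, ZNF496, ZNF174, ZNF232 and ZNF394 had log2 fold changes from -0.41 to 0.41 in both comparisons with control and no call.

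Of the 6 KRAB proteins listed with a known target, 3 passed the minimum. ZNF274, which recruits SETDB1 to the 3′ ends of zinc finger genes, had 201 counts in control, 346 with Rg3 and 145 with TAM. Its log2 fold change was 0.46 for Rg3 and -0.26 for TAM against control, and -0.72 (95% interval -1.01 to -0.44) for TAM against Rg3. At a GC content of 51.4%, removal of the trend left 0.64 for Rg3 and -0.82 for TAM against Rg3. ZNF445, which protects imprinted regions, had 171, 305 and 122 counts, with log2 fold changes of 0.51 and -0.28 and no call against control. These 2 genes and ZNF202 were each called lower with TAM than with Rg3, by log2 fold changes of -0.79 to -0.64, beside 30.4% of all genes. Removal of the trend left ZNF202 at -0.69 for TAM against Rg3, while ZNF445 lost its call and turned to 0.13.

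**Figure D5:**
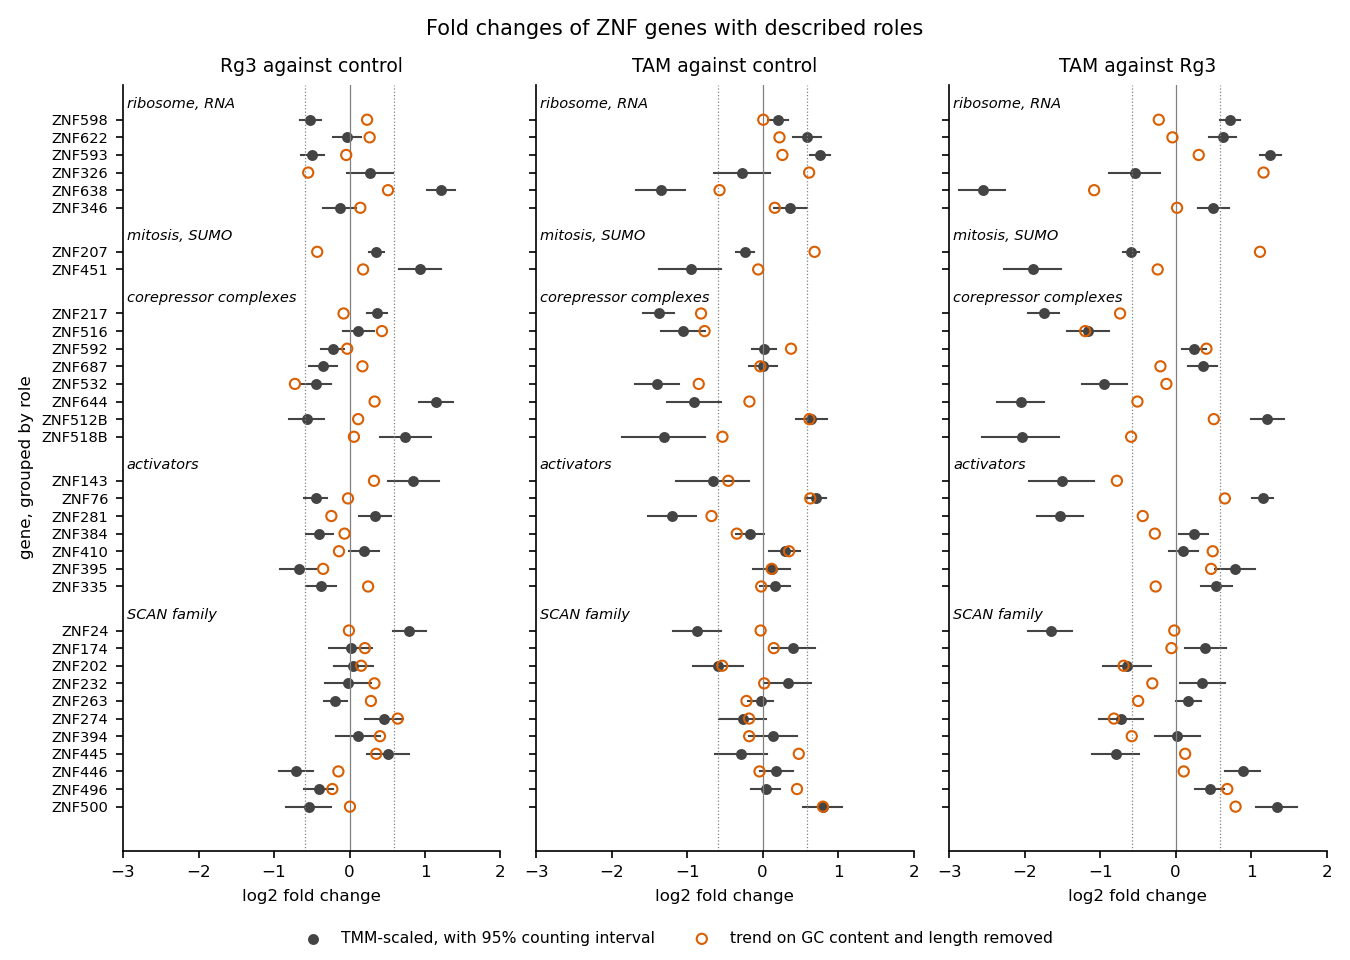
Log2 fold changes (horizontal) of ZNF genes with described roles (vertical, grouped), as filled points with 95% counting intervals for TMM-scaled counts and as open circles after subtracting the smooth trend, with dotted lines at 1.5-fold. In the corepressor group, ZNF217, ZNF516 and ZNF532 keep values of -0.82, -0.77 and -0.85 for TAM against control after removal.

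The genes for the silencing machinery that KRAB zinc finger proteins recruit are no ZNF genes, and 17 of 18 listed passed the minimum. TRIM28, the corepressor that binds the KRAB domain, had 14105 counts in control, 12599 with Rg3 and 17129 with TAM, log2 fold changes of -0.49 and 0.49 that were not called. SETDB1, its histone methyltransferase, had 526, 508 and 416 counts, also without a call. Over the 17 genes, Rg3 against control gave 5 calls higher and 0 lower, and TAM against control 0 higher and 5 lower, beside 19.3% and 18.1% and 15.6% and 19.4% of all genes. The HP1 protein gene CBX3 had 925, 2129 and 541 counts with a log2 fold change of 0.88 for Rg3, and the remodeler gene ATRX had 305, 648 and 90 counts with 0.76 for Rg3 and -1.55 for TAM. After removal of the trend there were 0 calls for Rg3, beside 4.08% and 5.61% of all genes, and 1 higher and 3 lower for TAM, beside 10.4% in each direction, where ATF7IP, MPHOSPH8 and ATRX stood at -0.63, -0.71 and -0.63. Removal took TRIM28 to 0.20 and 0.12.

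Related sequence limits some of these values. At least 5% of the 50-base stretches of 44 of the 141 genes recur in transcripts of other genes. The 44 include genes named above without a note, such as ZNF513 (12.2%), ZNF598 (11.3%), ZNF532 (11.1%) and ZNF764 (10.6%). Exons of 56 of the 141 overlap an exon on the opposite strand, whose reads cannot be told apart where strand is not used in counting. Among the 97 genes under 5%, Rg3 against control gave 17 higher and 20 lower genes, and TAM against control 17 and 24, beside 19.3% and 18.1% and 15.6% and 19.4% of all genes.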

How the data were processed

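RNA of PANC-1 cells was sequenced in 3 libraries, grouped by the agent in the labels. The authors deposited raw read counts for each gene symbol in 1 table of 51136 genes. Their methods name Fast-QC, TopHat and MAQ, and the submitters' processing notes name GRCh38. The counting tool, the annotation and the use of strand are not given in the sources used here. Number of unmapped columns of values: 0.

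From the deposited counts, log2 fold changes were computed with TMM factors of edgeR 4.0.16 (R 4.3.3), in Python 3.11.15 with pandas 2.3.3 and scipy 1.17.1, and figures with matplotlib 3.10.9. Factors were 1.02, 1.12 and 0.879 for control, Rg3 and TAM. For folds, 3 was the lowest count used. A gene was called past a fold of 1.5 or under 0.67, without the study's further criterion on the false discovery rate, and the background was every gene with at least 100 control counts. Limma, named in the study's methods, could not be fitted without replicates. Intervals are exact 95% Clopper-Pearson intervals on the reads of a gene in 2 libraries. GC content and length came from the longest GENCODE 29 transcript of each gene, found for all 141 genes and 93.7% of the background. Coordinates on GRCh38 came from the same release. The finger pattern (2 cysteines 2 to 4 residues apart, 12 residues, 2 histidines 3 to 5 apart) was sought in the longest annotated protein. A loose KRAB A box pattern, which can miss divergent boxes, was sought in the proteins of all protein-coding transcripts of a gene. The trend was a loess fit with span 0.3. No protein sequences are printed. Neighbours were genes under 1 Mb apart, in runs of at least 4.

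Named were the 6 highest and 6 lowest called genes of each comparison, the 6 with most control counts, the genes beside the minimum, and members of the role and silencing lists. The genes, lists and tests were chosen with earlier results of these data known. Steps were tested on simulated data. Alternatives were library totals, DESeq2 1.42.0 size factors, taking out a trend on GC content and length, or also on level, other count minimums, leaving out shared sequence, and call rules with an adjusted binomial p or an assumed variation of 0.2.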

Additional observations from a re-analysis of the deposited data

How the results depend on the processing

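Numbers of ZNF genes are given as higher and lower, for Rg3 against control, TAM against control and TAM against Rg3 in that order, beside 25 and 27, 28 and 32, and 50 and 49. Library totals gave 36 and 13, 9 and 41, and 33 and 59, with a median for TAM against Rg3 of -0.21, and DESeq2 size factors 25 and 27, 30 and 30, and 50 and 47. Removing the trend on GC content and length gave 3 and 5, 18 and 11, and 22 and 19, and with level as well 3 and 4, 23 and 11, and 22 and 14. The latter are 2.13% and 2.84%, 16.3% and 7.80%, and 15.6% and 9.93% of the ZNF genes. All genes gave 3.98% and 7.42%, 9.96% and 9.85%, and 18.7% and 15.5% with level in the trend. For TAM against control the median was then 0.18 over the ZNF genes and 0.03 over all genes. With a minimum of 200 control counts, 69 genes gave 9 and 17 (median -0.35), 18 and 17, and 32 and 20 (median 0.45). With no minimum on control, up to 421 genes gave 187 and 41 (median 0.50), 47 and 129, and 73 and 245 (median -0.82). At these other minimums the shares of all genes are not given here. The splits there thus cannot be read as particular to ZNF genes. Genes with under 5% shared stretches gave 17 higher with TAM against control and 30 higher with TAM against Rg3, of 97 genes. A mean of at least 100 over the 3 libraries and the adjusted binomial p kept each number within 1.5 times. With an assumed variation of 0.2 between cultures, edgeR's exact test called 0 and 0, 0 and 2, and 29 and 31. The share of all genes under this rule is not given here. Of 36 values of named genes at the ends of the comparisons, removing the trend moved 34 and library totals 9 past their counting interval, with no change of sign among these 36. Among all called ZNF genes, removing the trend turned the sign of 1 and 5, 0 and 3, and 13 and 10. No paired analysis was possible because the libraries have no replicates, and no library can be left out. Depth limits a fold of a typical ZNF gene to 0.28 to 0.32 on the log2 scale either way, and variation between cultures was not measured.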

Other observations

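The 250 ZNF genes with 10 to 99 control counts, left out of the report by their low level, had a lower median GC content, 42.3%, than the 141 genes above the minimum. It was also lower than the 46.8% of all genes with 10 to 99 control counts. Relative to control, 136 of the 250 ZNF genes were called higher and 14 lower in the Rg3 library, or 54.4% and 5.6%, with a median log2 fold change of 0.67. Of all 5850 genes with such counts, 27.6% were higher and 24.1% lower, with a median of 0.09. In the TAM library 16 were higher and 97 lower than in control, or 6.4% and 38.8% beside 14.6% and 32.2%, with a median of -0.35 beside -0.21. For TAM against Rg3, 22 were higher and 173 lower, or 8.8% and 69.2%, beside 1460 and 2342 (40.1%) of 5837 genes, with a median of -1.07 beside -0.26. After subtracting the smooth trend on GC content and length, the 81 of the 250 ZNF genes with at least 50 control counts had medians of 0.17, -0.05 and -0.12. The medians of all genes with such counts on this scale are not given here. Low counts make single folds imprecise here, and the control count again chose the genes.

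The 31 ZBTB, ZSCAN and ZKSCAN genes with at least 100 control counts, which also encode C2H2 proteins, had medians of 0.01 for Rg3 and -0.16 for TAM against control, with 6 higher and 5 lower and with 6 higher and 9 lower, beside 19.3% and 18.1% and 15.6% and 19.4% of all genes. For TAM against Rg3 their median was -0.23, with 9 higher and 12 lower, beside 33.2% and 30.4%. Without the trend, 0 of the 31 were higher and 4 lower for TAM against control, beside 10.4% in each direction. The difference of these genes from the 141 ZNF genes was not tested.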
